A study of Mus musculus with 6 samples.

Results

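The genes that take glucose to pyruvate, trade pyruvate with lactate and let pyruvate into the mitochondrion were followed in fetal mouse hearts. They are 31 genes listed by name, of 35458 genes in the files, and every member was measured. The hearts came from wild-type FVB/NJ fetuses, an inbred strain, taken on gestational day 15. Their mothers, 10 weeks old, breathed either filtered room air (sham) or air carrying nano-sized titanium dioxide, a white pigment (nano-TiO2), aimed at 12 mg/m3. Exposure started on gestational day 5 and filled 360 minutes on each of 6 days within an 8-day span. Each of the 6 libraries, 3 sham and 3 nano-TiO2, was made from fragmented total RNA of hearts pooled over fetuses of both sexes, before any antibody step of an RNA methylation study. The labels do not give the hearts or litters in a pool, so the p-values measure the spread between these pools, part of which may be technical.

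Glycolysis splits glucose into pyruvate in the cytosol and yields ATP without oxygen. Its rate is set mainly at hexokinase, phosphofructokinase and pyruvate kinase, and most steps are served by several isoenzymes, some found in most tissues and early in development and others typical of adult muscle. The fetal heart lives at low oxygen and draws much of its energy from glucose and lactate. After birth the heart turns to fatty acids, and pyruvate then enters the mitochondrion under control of the pyruvate dehydrogenase kinases.

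Salmon had assigned 12881945 to 22720009 estimated reads to transcripts per library, of which the 31 genes held 1.98% to 2.44%. A level is given in CPM (counts scaled to a common library size with edgeR's TMM factors), and levels of different genes are compared only per transcript length, in TPM. The heart markers were all present: 12 cardiomyocyte genes summed to 47472 to 54934 CPM in sham and 33914 to 44776 CPM in nano-TiO2 pools, with 4 called lower and 2 higher. The summed level of 14 red-cell genes ran at 121074 to 300241 CPM in sham and 45587 to 93383 CPM in nano-TiO2 pools, and 7 of them were called lower. For both lists, the shares among all genes tested were 12.8% lower and 15.5% higher. The 10 hepatocyte genes reached 1677 CPM in sham 2 against 35.5 to 151 CPM elsewhere, and 6 lung genes reached 1515 CPM in nano-TiO2 3 against 0.304 to 293 CPM elsewhere. Skeletal muscle genes summed to 115 CPM in nano-TiO2 1 and to 17.9 to 46.2 CPM elsewhere, and macrophage genes to 72.6 to 109 CPM. The part of these cells in the results below was not tested.

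Relative to the bulk of genes, 8 of the 16 genes from hexokinase to pyruvate kinase fell in nano-TiO2 hearts, and a lactate carrier (Slc16a1), a pyruvate dehydrogenase kinase (Pdk1) and a regulator of phosphofructokinase (Pfkfb2) rose. Of 30 members whose main transcript was counted by Salmon, 10 fell and 3 rose in edgeR's test at an adjusted p under 0.05, and 17 did not pass. Among all 13930 genes tested, 12.8% were called lower and 15.5% higher, so the share of members called lower (10 of 30) lay above the background and the share called higher (3 of 30) below it. The median log2 fold change, nano-TiO2 over sham, was -0.38 over the members and -0.01 over all genes. In 14 members every nano-TiO2 pool was below every sham pool and in 4 every one was above, where all genes gave 22.4% and 23.3%. In pooled tissue, fewer cells of a type and less RNA per cell cannot be told apart. Per length, and as Salmon split reads between near copies, the most abundant of the 30 in sham hearts were Aldoa at 3195 ± 455 TPM, Gapdh at 2165 ± 140.4, Pgam2 at 1793 ± 225, Ldha at 1499 ± 256 and Pkm at 1447 ± 304 TPM, and the least Pfkfb2 at 0.411 ± 0.120 TPM (SD, n = 3 each).

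On scales that do not centre the genes the signs shift as a whole, because the median of all genes then rises. With library totals as the only scaling, all genes had a median of 0.41 and the members 0.05, and 0 members were called lower and 6 higher by edgeR, beside 0.359% and 30.7% of all genes. On log2(TPM + 1) the medians were 0.47 and 0.18, with 0 lower and 7 higher of 29 by limma, beside 0.134% and 38.0%. On log2(TPM + 1) the fold changes of Hk1, Gpi1, Pfkl, Pgam2, Pkm, Ldha and Pdk2 lay above 0. Relative to the median gene, the members' median was -0.37 with TMM, -0.36 with totals, -0.30 in TPM and -0.15 once the trend over transcript length and GC content was removed. The falls given here are therefore falls relative to the bulk of genes, and on those 2 scales 0 members were lower at an unadjusted p under 0.05 as well.

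Calls of members and of all genes alike depended on which pools were in the fit and on the treatment of length and base composition. Without sham 1, 3 members were lower and 1 higher, beside 3.92% and 10.2% of all genes. Without sham 2 the members' counts were 3 and 0 (2.93% of all genes lower and 7.08% higher), and without sham 3 they were 5 and 4 (8.0% and 15.2%). Leaving out nano-TiO2 1 gave 2 and 0 members (3.04% lower and 5.97% higher), leaving out nano-TiO2 2 gave 12 and 3 (14.6% and 15.3%), and leaving out nano-TiO2 3 gave 3 and 0 (3.87% and 7.35%). With both sham 2 and nano-TiO2 3 left out, the pools with the most hepatocyte and lung RNA, edgeR called none of 14021 genes (0.0%), members included. At an unadjusted p under 0.05, 8 members were lower and 3 higher, and 3350 of the 14021 genes were under that value in either direction. In the Salmon reads, only Aldoa and Gapdh stayed under an adjusted p of 0.05 in edgeR in all 6 fits with 1 pool left out. Their highest values were 0.0448 and 0.0377. When the trend of each library over transcript length and GC content was removed, no member was called in either direction, the background was 1.18% lower and 0.388% higher, and the members' median became -0.17. In that fit 5 members were lower at an unadjusted p under 0.05 (Hk1, Gpi1, Pfkl, Pfkp and Ldha) and 1 higher (Pfkfb2). Of all 13930 genes, 2828 were under that value in either direction. The lowest edgeR adjusted p of a member was 0.116 (Pfkl). With DESeq2 12 were lower and 3 higher, beside 16.5% and 17.8% of all genes, and with limma-voom 11 and 3, beside 12.9% and 15.3%.

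**Figure D1:**
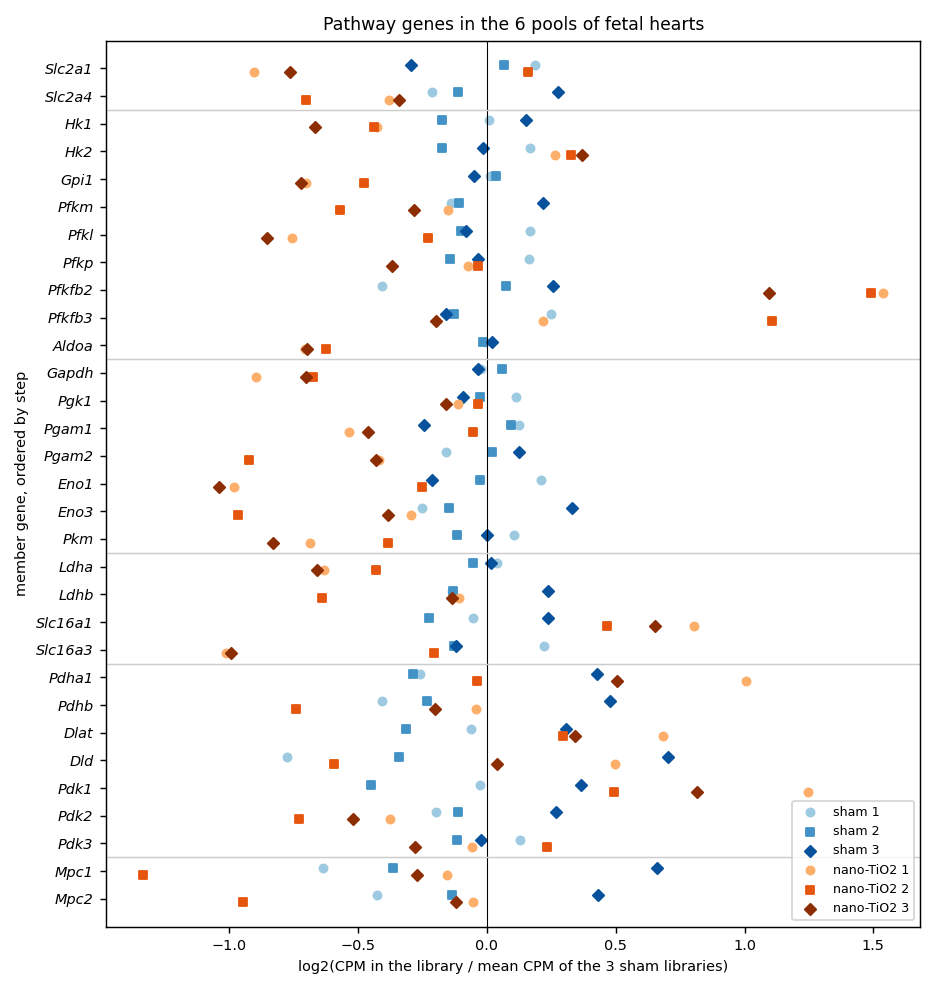
Level of each of the 31 genes in the 6 libraries, as log2 of its CPM over the mean CPM of the sham libraries, scaled by TMM, with genes in pathway order and grey lines between steps (Ldhb from the series table, the others from Salmon). Blue symbols are sham and orange to brown symbols nano-TiO2; for Aldoa and Gapdh the 3 nano-TiO2 libraries lie together below all sham libraries, while for Slc2a1, Pdhb, Dld, Mpc1 and Mpc2 the groups overlap.

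Neither glucose carrier passed the test. Slc2a1 encodes GLUT1, the basal carrier that prevails in the embryonic heart, and was read at 213, 196 and 153 CPM in sham 1, 2 and 3 and 100.2, 209 and 110.4 CPM in nano-TiO2 1, 2 and 3. Nano-TiO2 2 stood with the sham pools and nano-TiO2 1 and 3 below them, so the groups overlapped, at a log2 fold change of -0.42 ± 0.28 (standard error, adjusted p = 0.280). Slc2a4 encodes GLUT4, the insulin-responsive carrier of adult muscle and heart, and was read at 52.0, 55.7 and 73.0 CPM in sham 1, 2 and 3 and 46.3, 37.0 and 47.6 CPM in nano-TiO2 1, 2 and 3. Every nano-TiO2 pool lay below every sham pool, at -0.46 ± 0.17 (standard error, adjusted p = 0.0754). Per length, Slc2a1 ran at 61.0 ± 14.7 TPM and Slc2a4 at 24.7 ± 7.16 TPM in sham hearts (SD, n = 3 each).

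From hexokinase to aldolase, 4 of 9 genes fell and 1 rose, beside 12.8% and 15.5% of all genes. The lowest p was that of Aldoa, the aldolase that splits fructose bisphosphate and is the main form in muscle, at 5428, 5398 and 5519.9 CPM in sham 1, 2 and 3 and 3337, 3535 and 3361 CPM in nano-TiO2 1, 2 and 3. The groups stood far apart, and within each of them the pools differed by little: the mean went from 5449 ± 63.6 to 3411 ± 108 CPM (SD, 3 pools a group), a log2 fold change of -0.68 ± 0.11 (standard error, adjusted p = 0.00847). Gpi1, glucose phosphate isomerase, showed the same separation at 1202, 1224 and 1152 CPM in the sham pools and 732, 856 and 722 CPM in the nano-TiO2 pools. Its mean went from 1193 ± 36.8 to 770.2 ± 74.7 CPM (SD, 3 pools a group), a log2 fold change of -0.63 ± 0.12 (standard error, adjusted p = 0.0106). Hk1, the mitochondria-bound hexokinase of most tissues, was read at 550.4, 485 and 608 CPM in the sham pools and 408, 405 and 345 CPM in the nano-TiO2 pools. All exposed pools lay below all sham pools, and Hk1 fell from 548 ± 61.5 to 386 ± 35.3 CPM (SD, 3 pools a group), at -0.51 ± 0.13 (standard error, adjusted p = 0.0258).

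Phosphofructokinase, the committed step, is a tetramer of muscle, liver and platelet type subunits. The liver type Pfkl fell, at 619, 515 and 521 CPM in the sham pools and 326, 470.1 and 305 CPM in the nano-TiO2 pools. The pool nearest to sham was nano-TiO2 2, and the log2 fold change was -0.59 ± 0.18 (standard error, adjusted p = 0.0420). The muscle type Pfkm stood at 263 ± 37.1 CPM in sham and 210.0 ± 30.1 CPM in nano-TiO2 pools (SD, n = 3 each) with groups that did not overlap, yet it missed the threshold at -0.33 ± 0.15 (standard error, adjusted p = 0.144). The platelet type Pfkp overlapped between groups, at -0.15 ± 0.14 (standard error, adjusted p = 0.439). Hk2, the insulin-regulated hexokinase of muscle, was higher in each exposed pool, at 40.1, 31.6 and 35.4 CPM in the sham pools and 42.8, 44.7 and 46.1 CPM in the nano-TiO2 pools. That difference also missed the threshold, at 0.32 ± 0.14 (standard error, adjusted p = 0.121), and stood at -0.07 with length and GC accounted for.

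Pfkfb2 and Pfkfb3 encode enzymes that make and break the fructose bisphosphate isomer that activates phosphofructokinase, and Pfkfb2 is the form typical of heart. Pfkfb2 was the largest rise of the 30, at 0.803, 1.12 and 1.27 CPM in the sham pools and 3.10, 3.00 and 2.27 CPM in the nano-TiO2 pools, a log2 fold change of 1.38 ± 0.35 (standard error, adjusted p = 0.0220). These levels rest on few reads, 17, 15 and 25 reads in the sham pools and 51, 48 and 55 in the exposed pools. Pfkfb3, the widely expressed inducible form, was highest in nano-TiO2 2 at 22.2 CPM, against 8.97 to 12.2 CPM in the other 5 pools. Its groups overlapped, at 0.47 ± 0.33 (standard error, adjusted p = 0.301).

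Of the 7 genes from Gapdh to pyruvate kinase, 4 fell and none rose, beside 12.8% and 15.5% of all genes, and all 7 had fold changes below 0. Gapdh, which oxidises glyceraldehyde phosphate and is often used as a reference gene, was read at 2232, 2363 and 2214 CPM in sham 1, 2 and 3 and 1219.9, 1420.2 and 1393 CPM in nano-TiO2 1, 2 and 3. Its mean went from 2269.6 ± 81.5 to 1344 ± 109 CPM (SD, 3 pools a group), the largest fall of the members at -0.76 ± 0.12 (standard error, adjusted p = 0.00761). Of the 1390 words of 31 bases in its most read transcript, 84.1% also occur in other annotated genes, of which 24 share a majority of them. Reads cannot always be told apart between such copies, and Gapdh with those copies summed to 5744 CPM in sham pools. With those copies summed into the gene, the log2 ratio of group means was -0.71 against -0.76 for Gapdh alone.

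Pgk1, the phosphoglycerate kinase that makes the first ATP of the pathway, differed little, at 726, 659.9 and 629 CPM in the sham pools and 622, 656 and 602 CPM in the nano-TiO2 pools. The groups overlapped and the log2 fold change was -0.10 ± 0.12 (standard error, adjusted p = 0.542). Phosphoglycerate mutase comes as a muscle form, Pgam2, and a brain form found in most tissues, Pgam1. Pgam2 fell, at 1467, 1659.5 and 1785 CPM in the sham pools and 1225, 864 and 1215 CPM in the nano-TiO2 pools, with nano-TiO2 2 the lowest and all exposed pools below sham. Its log2 fold change was -0.57 ± 0.17 (standard error, adjusted p = 0.0346). Pgam1 overlapped between groups, at -0.33 ± 0.17 (standard error, adjusted p = 0.166).

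Enolase also has a muscle form, Eno3, and a widely expressed form, Eno1. Eno1 fell, at 1669, 1416 and 1246 CPM in sham 1, 2 and 3 and 731, 1214 and 701 CPM in nano-TiO2 1, 2 and 3. Nano-TiO2 2 reached almost the level of the lowest sham pool, and the log2 fold change was -0.71 ± 0.23 (standard error, adjusted p = 0.0463). Its near copy Eno1b and other genes share 77.2% of its words, and Eno1 with its copies summed gave a log2 ratio of -0.69. Eno3 was lower in every exposed pool, at 1393, 1497 and 2089.9 CPM in the sham pools and 1353, 850.2 and 1272 CPM in the nano-TiO2 pools. Sham 3 stood well above the other pools, and the gene missed the threshold at -0.52 ± 0.22 (standard error, adjusted p = 0.105).

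Pkm, the pyruvate kinase of heart and most tissues, fell, at 4082, 3505 and 3795 CPM in sham 1, 2 and 3 and 2357, 2905 and 2135 CPM in nano-TiO2 1, 2 and 3. Its mean went from 3794 ± 289 to 2466 ± 396 CPM (SD, 3 pools a group), a log2 fold change of -0.62 ± 0.15 (standard error, adjusted p = 0.0200). The gene makes an M1 form, typical of adult muscle, or an M2 form, typical of the embryo and of growing cells, by including one of a pair of exons of equal length. They are printed because they are what lets the forms be counted apart. Both lie on chromosome 9 of GRCm38, plus strand, in the coding part of Pkm (GENCODE M21), the M1 exon at chr9:59675029-59675195 and the M2 exon at chr9:59675568-59675734. Each is 167 bases long, and capitals mark the 64 positions at which they differ.
Pkm M1 exon: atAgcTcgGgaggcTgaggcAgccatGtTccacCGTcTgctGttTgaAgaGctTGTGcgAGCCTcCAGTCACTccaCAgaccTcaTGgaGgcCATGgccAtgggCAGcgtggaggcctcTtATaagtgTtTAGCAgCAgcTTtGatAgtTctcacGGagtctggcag
Pkm M2 exon: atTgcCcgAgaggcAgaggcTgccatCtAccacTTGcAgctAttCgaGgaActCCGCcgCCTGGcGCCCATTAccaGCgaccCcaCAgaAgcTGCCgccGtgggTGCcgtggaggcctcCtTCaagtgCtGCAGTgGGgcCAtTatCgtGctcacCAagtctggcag

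By either count, the groups overlapped in the share of the M1 form. From Salmon's TPM of the M1 and M2 transcripts, M1 made up 52.5, 53.2 and 58.0% over sham pools 1 to 3 and 57.4, 50.6 and 53.7% over nano-TiO2 pools 1 to 3. The group means were 54.5 ± 2.98% and 53.9 ± 3.37% (SD, n = 3 each, exact permutation p = 0.8, two-sided). In the second file, a table of reads along each gene in bins of about 25 bases, reads in the 6 bins inside each exon gave M1 71.0, 76.8 and 80.6% over sham pools 1 to 3 and 80.7, 69.5 and 78.7% over nano-TiO2 pools 1 to 3. The group means were 76.1 ± 4.83% and 76.3 ± 5.94% (SD, n = 3 each, exact permutation p = 0.9). The counts put the M1 share at different heights but ordered the pools alike at the low end, with nano-TiO2 2 lowest and sham 1 next, and had sham 3 and nano-TiO2 1 highest.

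**Figure D2:**
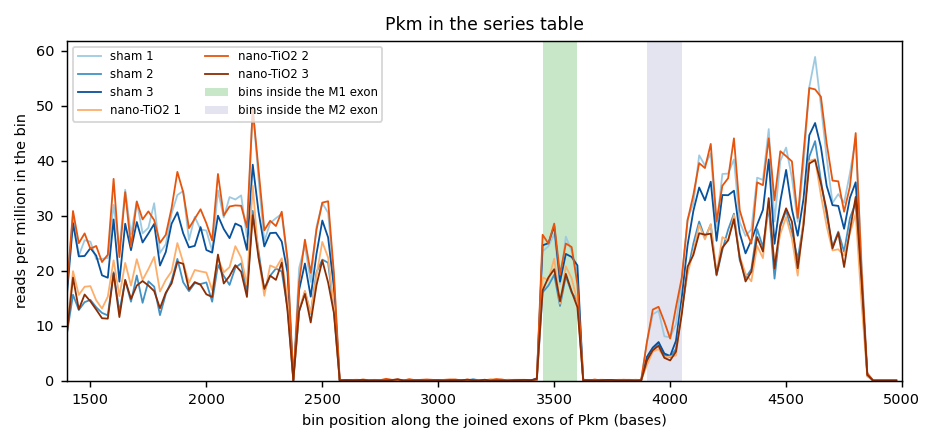
Reads of Pkm per bin of the series table, as a rate of all reads of the library (no other scaling), against bin position along the joined exons; each line is a library and the shaded bands are the 6 bins inside each alternative exon. In every library the M1 band holds more reads than the M2 band, and sham 1 and nano-TiO2 2 are the highest lines in the M2 band.

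Of the 4 lactate genes, 1 fell and 1 rose, beside 12.8% and 15.5% of all genes in the Salmon reads. Ldha, the subunit of lactate dehydrogenase that favours making lactate from pyruvate, was read at 2912, 2731 and 2867 CPM in sham 1, 2 and 3 and 1828, 2106 and 1797 CPM in nano-TiO2 1, 2 and 3. Its mean went from 2836 ± 94.4 to 1910.2 ± 170.0 CPM (SD, 3 pools a group), a log2 fold change of -0.57 ± 0.12 (standard error, adjusted p = 0.0140). Ldhb, the heart subunit that favours burning lactate, could not be taken from the Salmon files, in which its full-length transcript had no row that could be matched and the other 3 held 13.2 to 42.3 reads. In the series table, with 17463 to 41178 reads, Ldhb was at 1227, 1228 and 1587 CPM in sham 1, 2 and 3 and 1249, 864 and 1227 CPM in nano-TiO2 1, 2 and 3. The groups overlapped, with sham 3 highest and nano-TiO2 2 lowest, at -0.28 ± 0.18 (standard error, adjusted p = 0.271).

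The lactate carriers had fold changes of opposite sign. Slc16a1 encodes MCT1, which takes lactate into heart muscle, and it rose, at 63.8, 56.7 and 78.1 CPM in sham 1, 2 and 3 and 116, 91.4 and 104 CPM in nano-TiO2 1, 2 and 3. All exposed pools lay above all sham pools, and the log2 fold change was 0.65 ± 0.16 (standard error, adjusted p = 0.0201). Slc16a3 encodes MCT4, the exporter of glycolytic tissue, and was read at 368, 289.6 and 291 CPM in the sham pools and 157, 274 and 159 CPM in the nano-TiO2 pools. Nano-TiO2 1 and 3 were far below sham and nano-TiO2 2 just below it, and the gene missed the threshold at -0.69 ± 0.23 (standard error, adjusted p = 0.0539).

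Of the 7 genes of the pyruvate dehydrogenase complex and its kinases, 1 fell and 1 rose, near the 12.8% and 15.5% of all genes. Both were kinases, which switch the complex off. Pdk1, the kinase known for its induction at low oxygen, rose, at 72.9, 54.3 and 95.5 CPM in sham 1, 2 and 3 and 176, 104 and 131 CPM in nano-TiO2 1, 2 and 3. The exposed pools all lay above sham, and the mean went from 74.2 ± 20.6 to 137 ± 36.3 CPM (SD, 3 pools a group), a log2 fold change of 0.88 ± 0.24 (standard error, adjusted p = 0.0305). Pdk2, the widely expressed kinase, fell, at 259.8, 276 and 359 CPM in sham 1, 2 and 3 and 229.6, 179.6 and 208 CPM in nano-TiO2 1, 2 and 3, a log2 fold change of -0.53 ± 0.16 (standard error, adjusted p = 0.0378). Of the members called from Salmon, it alone missed the threshold in all 6 Salmon fits with a pool left out, at an edgeR adjusted p of 0.0624 to 0.103. Pdk3 overlapped between groups, at -0.02 ± 0.16 (standard error, adjusted p = 0.937).

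None of the 4 enzyme subunits passed. Pdha1, the catalytic alpha subunit of the first enzyme, was at 176, 173 and 283 CPM in the sham pools and 423, 205 and 299 CPM in the nano-TiO2 pools, and sham 3 lay within the range of the exposed pools. Pdhb, its beta subunit, ran from 449.8 CPM in nano-TiO2 2 to 1047 CPM in sham 3, with -0.30 on the log2 scale (adjusted p = 0.414). Pdha1 stood at 0.55 (adjusted p = 0.177), so that the subunits of that enzyme had fold changes of opposite sign. Dlat, the acetyl transfer subunit, stood at 0.45 (adjusted p = 0.0953). Dld, the subunit shared with other dehydrogenases, had the widest spread among sham pools relative to its mean, from 77.8 to 217 CPM, at 0.05 (adjusted p = 0.942).

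The mitochondrial pyruvate carrier is a dimer of Mpc1 and Mpc2, and neither subunit passed. Mpc1 was read at 220.4, 267 and 541 CPM in sham 1, 2 and 3 and 308, 136 and 284 CPM in nano-TiO2 1, 2 and 3. Sham 3 was highest and nano-TiO2 2 lowest, and the spread within the groups was larger than the gap between them, at -0.50 ± 0.40 (standard error, adjusted p = 0.386). Mpc2 followed the same order of pools, at 278, 340.2 and 504 CPM in the sham pools and 359.7, 194 and 344 CPM in the nano-TiO2 pools and a log2 fold change of -0.32 ± 0.28 (standard error, adjusted p = 0.413).

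**Figure D3:**
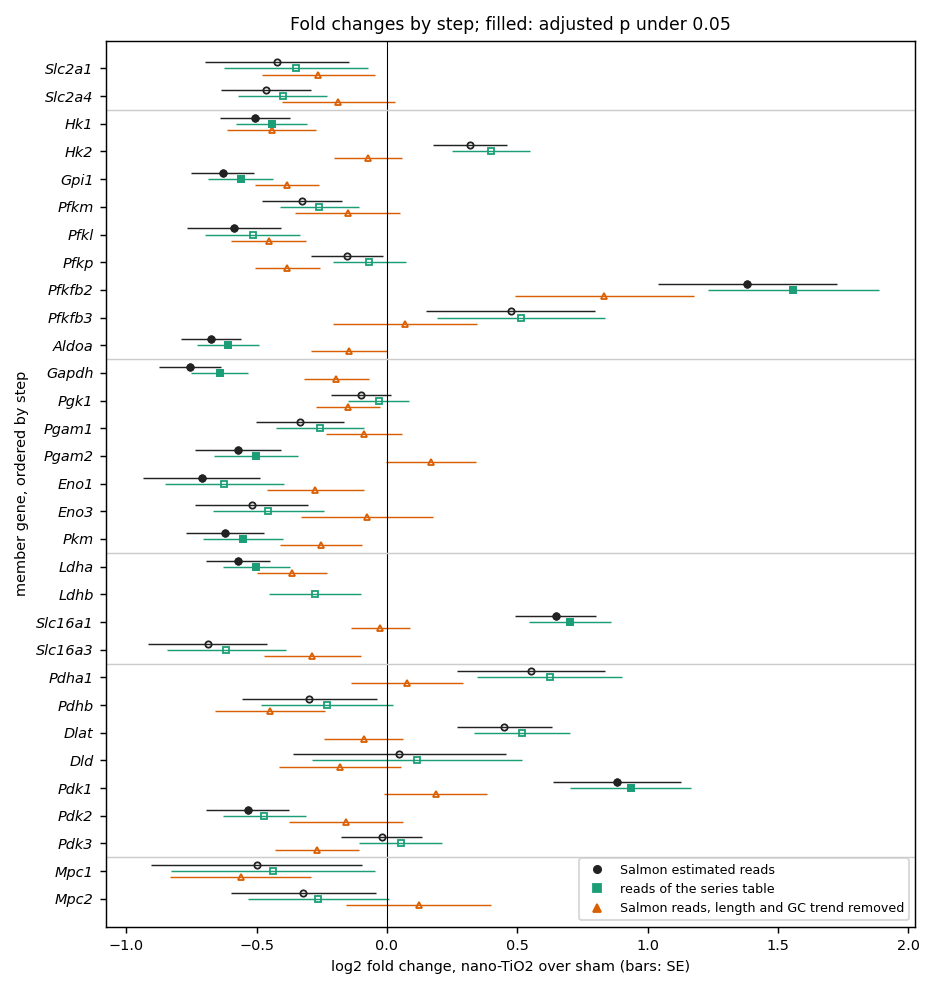
log2 fold change, nano-TiO2 over sham with TMM scaling, of each gene with its standard error, from Salmon reads (black), reads of the series table (green) and Salmon reads with the length and GC trend of each library removed (orange); filled symbols passed an adjusted p of 0.05 in edgeR. Black and green symbols lie next to each other for each gene but Ldhb, which has a green symbol only, and no orange symbol is filled.

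The series table was counted in another way from the same libraries and so is a second reading, not further samples. It held 15735142 to 29740017 whole reads per library and gave 18850 genes for the test, of which 11.2% were called lower and 15.4% higher. Of the 31 members, 7 fell there (Hk1, Gpi1, Aldoa, Gapdh, Pgam2, Pkm and Ldha) and 3 rose (Pfkfb2, Slc16a1 and Pdk1), and all 10 had the same call from Salmon. The groups did not overlap in 10 members that were lower and 5 that were higher, beside 21.4% and 22.9% of all genes. Pfkl, Eno1 and Pdk2, called from Salmon, stood at adjusted p = 0.0653, 0.0707 and 0.0547. In this table Gapdh and Pfkfb2 stayed called in all 6 fits with 1 pool left out. Aldoa missed the threshold there without nano-TiO2 1. The median over the members was -0.28 and over all genes -0.01. Gapdh was at 564 ± 10.5 CPM in sham and 362 ± 10.2 CPM in nano-TiO2 pools there (SD, n = 3 each), lower in level than from Salmon, and its log2 fold change was -0.64.

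A ratio of isoenzymes inside a library needs no scaling between libraries, and 11 such log2 ratios of levels per length were compared. With 3 pools a group the exact permutation test cannot go below p = 0.10, and adjusted over the 11 ratios the lowest value was 0.367, so no ratio passed. In 3 ratios the groups did not overlap. Slc16a1 over Slc16a3, the MCT1 to MCT4 ratio, was -3.90, -3.69 and -3.19 over sham pools 1 to 3 and -1.82, -2.98 and -2.01 over nano-TiO2 pools 1 to 3, a mean difference of 1.32. Pdk2 over Pdk1 was 2.72, 3.43 and 2.90 over sham pools 1 to 3 and 1.54, 1.75 and 1.97 over nano-TiO2 pools 1 to 3, a difference of -1.26. Hk2 over Hk1 was -3.26, -3.25 and -3.56 over sham pools 1 to 3 and -3.001, -2.85 and -2.32 over nano-TiO2 pools 1 to 3, a difference of 0.63. Each of these 3 had an exact p of 0.10. In all 3 the gene that gained was the longer one, and the log2 fold changes fitted with offsets for length and GC differed by 0.26, -0.35 and 0.37.

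Other than Hk2 over Hk1, the ratios of muscle over widely expressed forms overlapped between groups. Eno3 over Eno1 was -0.07, 0.22 and 0.83 over sham pools 1 to 3 and 0.91, -0.30 and 0.93 over nano-TiO2 pools 1 to 3, a mean difference of 0.19 (exact permutation p = 0.8). Slc2a4 over Slc2a1 differed by -0.0037, Pfkm over the sum of Pfkl and Pfkp by 0.09 and Pgam2 over Pgam1 by -0.23 on the log2 scale. In each of these ratios nano-TiO2 2 was the lowest of the exposed pools and sham 1 the lowest sham pool, and sham 3 was the highest sham pool. Slc16a1 over Slc16a3, Pfkfb2 over Pfkfb3 and Pkm M1 over M2 had that order too. Hk2 over Hk1, Pdk2 over Pdk1 and Mpc1 over Mpc2 did not. Ldhb made up 41.3, 43.5 and 47.8% of the summed Ldha and Ldhb reads per kilobase over sham pools 1 to 3 and 52.6, 39.3 and 52.2% over nano-TiO2 pools 1 to 3, again with those pools at the ends. The remaining ratios, Pfkfb2 over Pfkfb3 at 0.32 (1.02 from reads with no length correction and 1.16 in the series table) and Mpc1 over Mpc2 at -0.18, overlapped too.

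**Figure D4:**
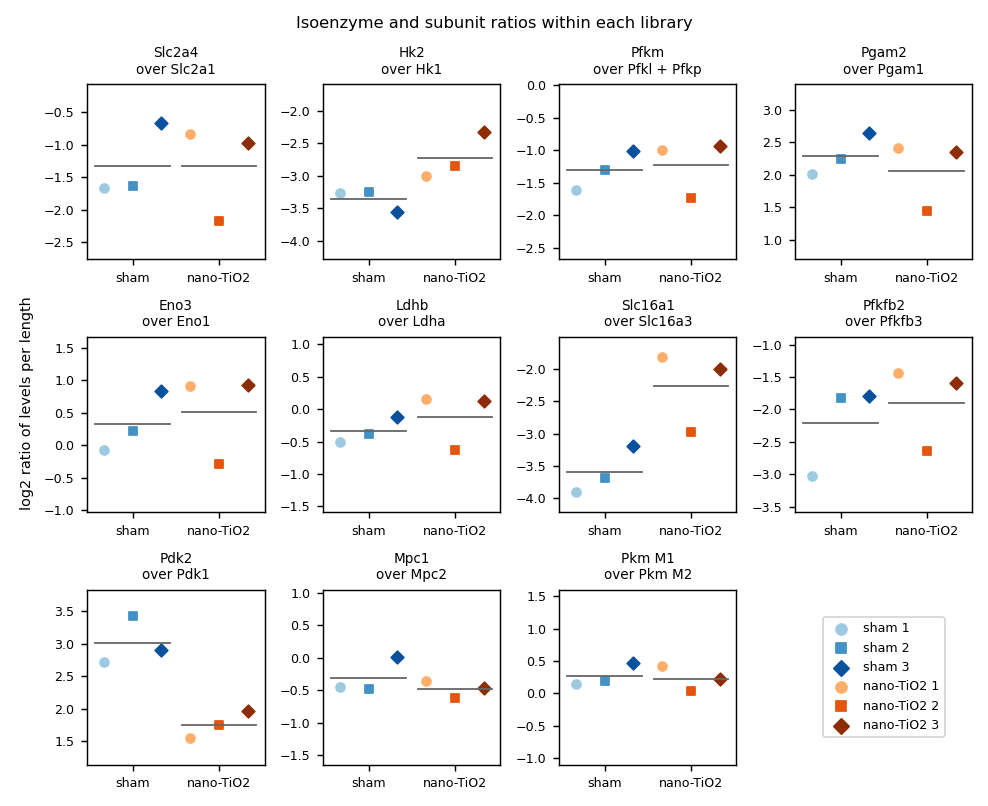
log2 ratio of levels per length in each library for 11 pairs of forms (Ldhb over Ldha from the series table, the others from Salmon TPM), with a grey line at the mean of each group; every panel spans the same height. Groups stand apart for Hk2 over Hk1, Slc16a1 over Slc16a3 and Pdk2 over Pdk1. Nano-TiO2 2 is the lowest exposed library for Slc2a4, Pfkm, Pgam2, Eno3 and Ldhb over their widely expressed forms. It is also the lowest for Slc16a1 over Slc16a3, Pfkfb2 over Pfkfb3, Mpc1 over Mpc2 and Pkm M1 over M2.

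Most members, 24 of 30, followed 1 of 2 orders among the pools, whichever group they belonged to. These orders were picked out after the values were seen and are given with no test. In 11 of 30 members sham 1 was the highest sham pool and nano-TiO2 2 the highest exposed pool: Slc2a1, Pfkl, Pfkp, Pfkfb3, Pgk1, Pgam1, Eno1, Pkm, Ldha, Slc16a3 and Pdk3. Among all genes tested, 20.9% had that order. In 13 of 30 sham 3 was the highest sham pool and nano-TiO2 2 the lowest exposed pool: Slc2a4, Pfkm, Pgam2, Eno3, Slc16a1, Pdk1, Pdk2, Mpc1, Mpc2 and the 4 dehydrogenase subunits, against 25.2% of all genes. Ldhb, from the series table, had the latter order. Of the isoenzymes, Slc2a1, Pfkl, Pfkp, Pgam1, Eno1 and Ldha had the former order and Slc2a4, Pfkm, Pgam2, Eno3 and Ldhb the latter, while Hk1 and Hk2 had neither. Of the genes of pyruvate entry, Pdk3 had the former and the others the latter.

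The embryonic globins differed between the same pools. Hbb-y, a beta-like globin of the first red cells, stood at 4344, 2298 and 108 CPM in sham 1, 2 and 3 and at 60.4, 3160.4 and 41.4 CPM in nano-TiO2 1, 2 and 3. Of the 14 red-cell genes, it and the other embryonic globins Hba-x and Hbb-bh1 were highest in sham 1 and nano-TiO2 2, and 11 had another order. Of the 12 cardiomyocyte genes, none had that order, and 5 (Tnnt2, Tnni3, Tnni1, Ttn and Ryr2) were highest among sham pools in sham 3 and lowest among exposed pools in nano-TiO2 2. Of 12 skeletal muscle genes, 2 had each. None of the hepatocyte, lung and macrophage genes had either. The part of pool differences of this kind in the isoenzyme levels was not tested.

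Fold changes across all genes followed transcript length and GC content, which together accounted for 45.04% of their variance. The median log2 fold change ran from -0.45 in the shortest of 5 classes of genes to 0.68 in the longest, and from 0.49 in the class lowest in GC to -0.43 in the class richest in GC. The members in those classes of length had medians of -0.52 (7 genes) and 0.47 (3 genes), and in those classes of GC 0.35 (2 genes) and -0.62 (7 genes). The 3 members that rose had transcripts longer and lower in GC than those of Gapdh and Aldoa: Slc16a1 averaged 4426 bases and 42.9% GC, Pdk1 4692 bases and 46.6%, and Pfkfb2 3521 bases and 46.0%. Hk1, at 3932 bases and 55.9% GC, and Pfkl, at 3691 bases and 57.1% GC, fell. Gapdh had 1142 bases and 55.6% GC, and Aldoa 1508 bases and 57.3%.

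With that trend removed, Slc16a1 stood at -0.02, Pdk1 at 0.19 and Pfkfb2 at 0.83, and Gapdh at -0.19, Aldoa at -0.15 and Pgam2 at 0.17. Slc16a1, Pgam2 and 4 members that had not been called, Hk2 (-0.07), Dlat (-0.09), Dld (-0.18) and Mpc2 (0.12), had the other sign there. Hk1 kept -0.44 and Pfkl -0.45, against -0.51 and -0.59 without the correction. Of the 30 members, 24 lay below 0 in that fit and 6 above. Whether length and GC act in the tissue or in library making was not tested.

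**Figure D5:**
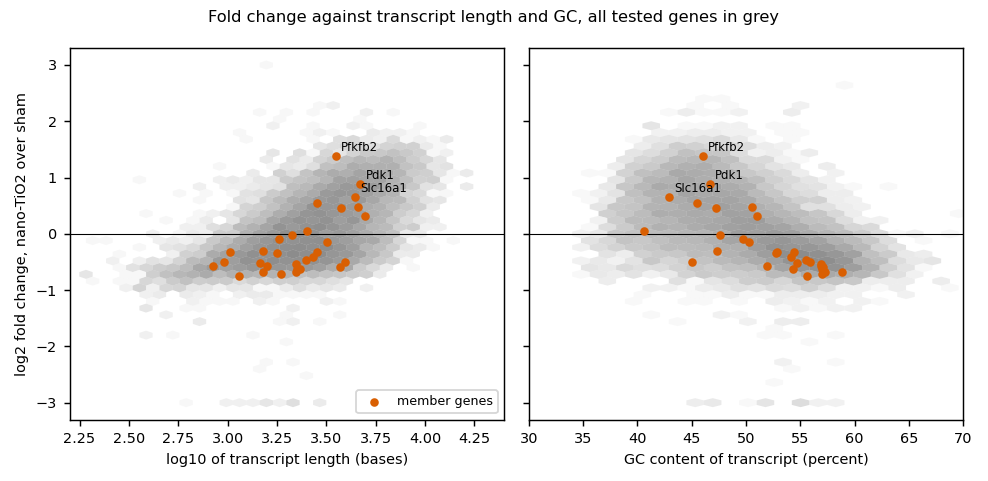
log2 fold change, nano-TiO2 over sham, of all 13930 tested genes (grey, darker where more genes lie, values beyond 3 drawn at 3) and of 30 members (orange) against log10 transcript length on the left and GC content on the right. Long transcripts low in GC lie higher in both panels, and the members lie along the band of all genes, with Pfkfb2, Pdk1 and Slc16a1 at its upper part.

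Many genes of glycolysis are known targets of hypoxia-inducible factors, whose DNA site has the core ACGTG, and E-box factors such as MYC bind CACGTG. The sequences below are the 250 bases upstream of the first of 2 listed starts of Ldha (fell, 5 matches, and 0 at the other start, chr7:46846832-46847081), Slc16a1 (rose, 2 matches) and Gapdh (fell, no match), shown because they were called and differ in the core. They come from RefSeq on GRCm38.p6 and read 5′ to 3′ on the gene's strand, and capitals mark ACGTG or its reverse complement CACGT. The palindrome CACGTG counts as a match on each strand.
Ldha, chr7:46845554-46845803, plus strand: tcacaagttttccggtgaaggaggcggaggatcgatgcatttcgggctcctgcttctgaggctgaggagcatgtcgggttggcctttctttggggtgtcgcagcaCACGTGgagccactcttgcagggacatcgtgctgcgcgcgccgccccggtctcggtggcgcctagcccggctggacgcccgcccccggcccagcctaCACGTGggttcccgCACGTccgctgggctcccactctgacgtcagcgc
Slc16a1, chr3:104638414-104638663, plus strand: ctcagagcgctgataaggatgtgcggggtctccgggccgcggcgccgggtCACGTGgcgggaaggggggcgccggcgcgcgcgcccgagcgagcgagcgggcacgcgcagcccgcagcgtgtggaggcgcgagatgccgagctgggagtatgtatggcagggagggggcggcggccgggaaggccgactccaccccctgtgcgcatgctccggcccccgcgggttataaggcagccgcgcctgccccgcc
Gapdh, chr6:125165774-125166023, minus strand: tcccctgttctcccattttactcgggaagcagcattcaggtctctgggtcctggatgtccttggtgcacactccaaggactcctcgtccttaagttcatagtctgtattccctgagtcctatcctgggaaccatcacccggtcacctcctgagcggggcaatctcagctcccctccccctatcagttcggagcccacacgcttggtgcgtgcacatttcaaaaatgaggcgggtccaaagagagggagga

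Of the 30 members with a window in that table (all but Slc2a4), 15 (50.0%) held the core on either strand, against 18.5% of 27025 genes with windows of the same length. A gene counted when any of its windows held the core, and 11 members have several. By window, it was 19 of 46 (41.3%), against 16.6% of 32851 windows of all genes. By call, it was in 4 of 10 members that fell (Aldoa, Ldha, Pdk2 and Pkm), 2 of 3 that rose (Pfkfb2 and Slc16a1) and 9 of 17 that did not pass. A match describes these letters in this window and does not show a bound factor.

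Of 31 further genes of the pathway that are not members, 27 were tested, and 7 fell and 3 rose, beside the 12.8% and 15.5% of all genes. By the series table, 7 fell and 2 rose, all of them among these 10, and Slc16a7 missed the threshold there (edgeR, adjusted p = 0.0525). The falls were Tpi1, triose phosphate isomerase, the brain aldolase Aldoc (-0.64 on the log2 scale), the liver and red-cell pyruvate kinase Pklr (-3.96), phosphoglucomutase Pgm1 (-0.48), the carrier Slc2a8 (-0.57), basigin Bsg, the chaperone of MCT1 and MCT4 (-0.54), and pyruvate carboxylase Pcx (-0.68). The rises were the lactate carrier Slc16a7 (1.355), Pdp2 (0.98) and Pdpr (1.21). Pdp2 is a phosphatase that switches pyruvate dehydrogenase on. Pdpr is the regulatory subunit that pairs with another such phosphatase, Pdp1, which did not pass (0.41, edgeR adjusted p = 0.458). Pklr stood at 16.8 CPM in sham 2, the pool with the highest summed hepatocyte and red-cell markers, and at 0.289 to 2.22 CPM in the others. Tpi1 gave -2.35 from Salmon, where its mean was 38.7 CPM in sham pools, and -0.64 from the series table, where it was 1389 CPM, so the Salmon rows hold only a small part of its reads and their fold change is not that of the gene as a whole.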

How the data were processed

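Total RNA of pooled fetal hearts, before any antibody step, was measured in 6 libraries (3 sham, 3 nano-TiO2). The authors deposited Salmon tables with estimated counts and TPM per transcript, per the file headers, and a table of signal for successive bins of every gene, 25 bases apart and scaled by 1 factor for each library. Salmon 1.5.2, HISAT2 2.2.1, DESeq2 1.34.0 and GRCm39 are named without roles in the submitters' processing notes. How the bins were counted, and on which strand, is not given in the sources used here.

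Estimated counts were summed per gene, rounded and scaled by TMM. GENCODE M21 (GRCm38) matched 115685 of 116747 transcripts. The test was edgeR 4.0.16's quasi-likelihood test, group only, Benjamini-Hochberg adjusted over 13930 genes kept by filterByExpr, and checked on simulated data. Whole reads were recovered from the bin table for 100.0% of values (tolerance 0.001). Its bins lay 105 bases toward the 5′ end of the annotated exons in 11 other plus-strand members (95 to 130), and the Pkm windows were moved by that amount. The trend over length and GC was fitted with mgcv 1.9.3 and entered as offsets. Alternatives used limma 3.58.1 (on log2(TPM + 1), where the mean TPM reached 1) and DESeq2 1.42.0. Ratios were compared with a two-sided exact permutation test. All 31 members are named with values, those with the smallest p of each step and each isoenzyme pair in full. Of the other pathway genes, those called and Tpi1 are named, and Pdp1 beside Pdpr. Members, lists and named genes were chosen with earlier results of these data known. Macrophage and skeletal muscle markers were also summed, 1 further marker list is not reported here, and 0 columns had no sample.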

Additional observations from a re-analysis of the deposited data

How the results depend on the processing

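The count of members called lower (10) became 5 with the replicate number as a block, and 0 with library totals, on log2(TPM + 1), on log2(TPM + 0.1), with the length and GC trend removed (alone or with the replicate block) and without sham 2 and nano-TiO2 3 together. It ran from 2 to 12 with 1 library left out. The count called higher (3) became 2 with the block, 6 with library totals, 7 on both TPM scales and 0 with the trend removed, with block and trend together and without sham 2 and nano-TiO2 3, and ran from 0 to 4 with 1 library left out. It stayed 3 with RLE and upper-quartile scaling, DESeq2, limma-voom, other filters and other gene sets, where 8 to 12 were lower. Over those scalings, tests, filters and gene sets, 6.91% to 16.5% of all genes were called lower and 8.93% to 17.8% higher. With the block 5.71% of all genes were lower and 9.06% higher, and with block and trend together 0.244% and 0.0646%. On log2(TPM + 0.1) the shares were 0.126% and 37.6%. The members' median turned to 0.052 with library totals and 0.18 on both TPM scales, where the all-gene median rose too. It was -0.17 with the trend removed, -0.15 with block and trend, -0.28 in the series table and -0.46 to -0.21 with 1 library left out.

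On the TPM scales (pseudocounts 1 and 0.1) the log2 fold changes turned to 0.18 and 0.18 for Hk1, 0.10 for Gpi1, 0.074 for Pfkl, 0.56 for Pgk1, 0.081 for Pgam2, 0.047 for Pkm, 0.084 for Ldha, and 0.13 and 0.14 for Pdk2. With the trend removed, Pgam2 turned to 0.17 (0.15 with the block) and Slc16a1 to -0.025 (-0.023 with the block). The causes were not tested. Of the checks of single genes, 521 kept direction and call, 108 lost a call, 20 gained one and 20 turned.

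In the series table, no member (0) was lower with library totals and 6 were higher, and calls were 0 and 0 with the trend removed and 0 and 0 without sham 2 and nano-TiO2 3, the last pair of checks chosen after seeing the data. Of all genes 0.138% and 30.8% were called lower and higher with library totals, 1.75% and 0.876% with the trend removed and 0.0% without those libraries. At an unadjusted p under 0.05 edgeR then gave 0, 5 and 4 lower members and 8, 1 and 3 higher ones. Of all genes, 7324 of 18850, 3603 of 16785 and 4615 of 19062 were under that value in either direction. Members called in the series table ran from 1 to 10 lower and 1 to 5 higher with 1 library left out, beside 3.11% to 12.1% and 7.12% to 15.4% of all genes. The other pathway genes called lower, 6 without Tpi1, became 1 with the block and 0 with the trend removed, and those called higher (3) became 0 with the trend removed. With 1 library left out they ran from 0 to 5 and from 2 to 4, beside 2.93% to 14.6% and 5.97% to 15.3% of all genes in the Salmon reads. There 5.71% of all genes were lower with the block, and 1.18% were lower and 0.388% higher with the trend removed. The Pfkfb2 over Pfkfb3 difference was 1.02 without length correction and 1.16 in the series table. The ratio with only protein-coding transcripts of Pfkfb2 had a library at 0 and was not computed.

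Same-numbered libraries did not deviate together (correlations -0.39, 0.02 and -0.08), so the replicate block pairs libraries by number only. Pfkfb2 rests on 15 to 55 reads per library.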
